A study of Mus musculus with 2 samples.

Results

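Transcript levels of 7 genes of efferocytosis, the uptake of dying cells by phagocytes, were compared across the immune cells of the mouse aortic adventitia. The genes are the receptors *Mertk*, *Axl*, *Stab1* and *Msr1* and the bridging ligands *Gas6*, *Pros1* and *Mfge8*. They were taken by symbol from the 55386 features of the deposited count matrices, and all 7 were found in both libraries. Each library holds CD45+ cells sorted from aortas of 16-week-old RankCreRosa26eYFP mice, in which Cre made from the *Rank* gene switches on a yellow fluorescent reporter (*Yfp*) that the progeny of the cell keep. The study used it to label macrophages of yolk-sac descent, and a cell without a *Yfp* UMI may still carry the label. The steady-state library was pooled from 3 untreated mice and the AngII library from 2 mice that received angiotensin II, a peptide that raises blood pressure and inflames the arterial wall, at 1.8 µg/kg/min for 10 days. With 1 library per condition, the effect of AngII and the difference between libraries cannot be told apart, and no p-value was computed.

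Dying cells expose phosphatidylserine on their surface. *Gas6* (growth arrest-specific 6) and *Pros1* (protein S) bind this lipid and bridge the dying cell to receptors of the TAM tyrosine kinase family, while *Mfge8* (lactadherin) bridges it to integrins. *Mertk* and *Axl* belong to the TAM family, in which not every ligand binds every receptor. *Stab1* (stabilin-1) binds phosphatidylserine directly and also takes up modified proteins, and *Msr1* (scavenger receptor A) binds modified lipoproteins and dying cells. *Mertk* is a hallmark of tissue-resident macrophages, whereas *Axl* is known as an inducible receptor of inflamed tissue.

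On GRCm38 with the GENCODE M21 annotation, *Mertk* (ENSMUSG00000014361.5) spans 128698956 to 128802894 of chromosome 2 on the plus strand. *Axl* (ENSMUSG00000002602.16) spans 25757273 to 25788705 of chromosome 7, *Stab1* (ENSMUSG00000042286.13) spans 31139013 to 31168641 of chromosome 14, and *Msr1* (ENSMUSG00000025044.16) spans 39581685 to 39642673 of chromosome 8, each on the minus strand. *Gas6* (ENSMUSG00000031451.6) lies at 13465374 to 13494490 of chromosome 8 and *Mfge8* (ENSMUSG00000030605.15) at 79133768 to 79149060 of chromosome 7, both on the minus strand. *Pros1* (ENSMUSG00000022912.8) lies at 62854307 to 62929346 of chromosome 16 on the plus strand.

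RefSeq start sites of build GRCm38.p6 were matched for 6 of the 7 genes, all but *Msr1*. The 250 bases before the start site are shown for *Stab1* and *Gas6*, which were high in resident-like macrophages in both libraries, for *Mertk*, whose levels over cell classes resembled theirs, and for *Axl*, which was lower in resident-like than in the other macrophage-like cells. Both strands were searched for 4 sequences chosen after the levels of the genes had been seen. These were TGCTGA (a half-site of Maf factors), GAGGAAGT (PU.1), AGGTCA (a half-site of nuclear receptors) and TGACTCA (AP-1), of which the Maf and AP-1 sequences overlap in a full Maf element. Capitals mark a match, and each run reads 5′ to 3′ on the strand of the gene.
Stab1 (chr14:31168642-31168891, minus strand): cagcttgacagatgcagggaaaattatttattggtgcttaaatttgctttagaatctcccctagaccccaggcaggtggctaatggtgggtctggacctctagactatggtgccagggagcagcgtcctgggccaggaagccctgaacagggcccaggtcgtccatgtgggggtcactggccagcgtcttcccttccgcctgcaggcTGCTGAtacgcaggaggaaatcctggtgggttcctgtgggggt
Gas6 (chr8:13494536-13494785, minus strand): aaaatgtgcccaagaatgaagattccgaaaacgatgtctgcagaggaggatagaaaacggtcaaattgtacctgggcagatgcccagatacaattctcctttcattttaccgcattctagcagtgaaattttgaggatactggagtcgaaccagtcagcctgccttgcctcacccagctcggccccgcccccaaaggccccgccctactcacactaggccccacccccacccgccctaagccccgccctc
Mertk (chr2:128698665-128698914, plus strand): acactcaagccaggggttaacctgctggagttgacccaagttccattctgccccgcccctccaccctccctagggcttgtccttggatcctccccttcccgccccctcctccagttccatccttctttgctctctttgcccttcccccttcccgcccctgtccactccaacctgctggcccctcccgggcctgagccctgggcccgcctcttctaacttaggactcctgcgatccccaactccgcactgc
Axl (chr7:25788734-25788983, minus strand): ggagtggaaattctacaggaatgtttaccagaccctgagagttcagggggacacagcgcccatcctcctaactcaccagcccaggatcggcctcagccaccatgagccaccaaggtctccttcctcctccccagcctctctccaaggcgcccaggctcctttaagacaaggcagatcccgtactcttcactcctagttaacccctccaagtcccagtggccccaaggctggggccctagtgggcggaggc
The *Stab1* window held 1 match, to TGCTGA, at position -43 counted from the start site. The windows of *Gas6*, *Mertk*, *Axl*, *Pros1* and *Mfge8* held none of the 4 sequences. Of 32851 mouse promoters of the same length, 16.1% held TGCTGA, 14.0% AGGTCA, 4.46% TGACTCA and 2.44% GAGGAAGT. The G and C content of the 4 windows printed was 57.2% for *Stab1*, 54.8% for *Gas6*, 63.6% for *Mertk* and 60.0% for *Axl*.

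The libraries differed in depth. Once barcodes outside 300 to 6500 genes or above 5% mitochondrial UMIs had been removed, 306 of 346 barcodes remained at steady state, with a median of 9105 transcript molecules (unique molecular identifiers, UMIs), and 4198 of 4419 on AngII, with a median of 1092. No barcode was shared between the libraries. On AngII, 45.5% of the cells had under 1000 UMIs, against 0.980% at steady state. Levels are therefore given as CPM, the UMIs of a gene summed over a class and scaled to the total of the class, in which deep cells weigh most, and shares of cells with a UMI also after each cell was thinned to 1000 UMIs. Cells with fewer UMIs than that were left out of the thinned values, so these cover the deeper cells only. Intervals are 95% exact intervals and cover counting error only.

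Each cell was assigned to a class by markers that hold none of the 7 genes. Resident-like macrophages, gated on *Lyve1*, *Folr2*, *F13a1*, *Cbr2*, *Cd163* and other markers of the adventitial resident population, numbered 106 at steady state and 430 on AngII. Among the 10 genes that stood out most in this class, 7 and 6 were markers of the class. The remaining macrophage-like cells numbered 26 and 1562. At steady state they were 13 type-2-like cells (marked by *Ear2* and *Retnla*) and 13 without a subclass. On AngII they were 193 reparative-like cells (marked by *Arg1* and *Spp1*), 138 type-2-like cells and 1231 without a subclass. The steady-state type-2-like class had 2 of its own markers and 2 reparative markers among its 10 leading genes, at a median depth of 26346 UMIs, and the steady-state type-2 dendritic-like class had 1 of its own. Thinning to 1000 UMIs left out 127 of 430 resident-like and 705 of 1562 other macrophage-like cells on AngII. At steady state it left out 1 of 106 and 1 of 26.

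All 4 receptors were found mainly in macrophage-like cells, which held 93.2% of the *Mertk* UMIs and 96.0% of the *Stab1* UMIs of the steady-state library and 88.0% and 91.9% of those on AngII. The share was lower for *Msr1*, at 78.6% and 65.9%, and for *Axl*, at 69.6% and 76.0%. Of the ligands, *Gas6* was as restricted as *Stab1*, with 97.0% and 93.6% of its UMIs in macrophage-like cells, and *Pros1* less so, with 83.9% and 71.4%. *Mfge8* had only 37.2% and 43.0% of its UMIs there. These shares also depend on how many cells of each class a library holds. Macrophage-like cells were 43.1% of the cells at steady state and 47.45% on AngII.

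**Figure D1:**
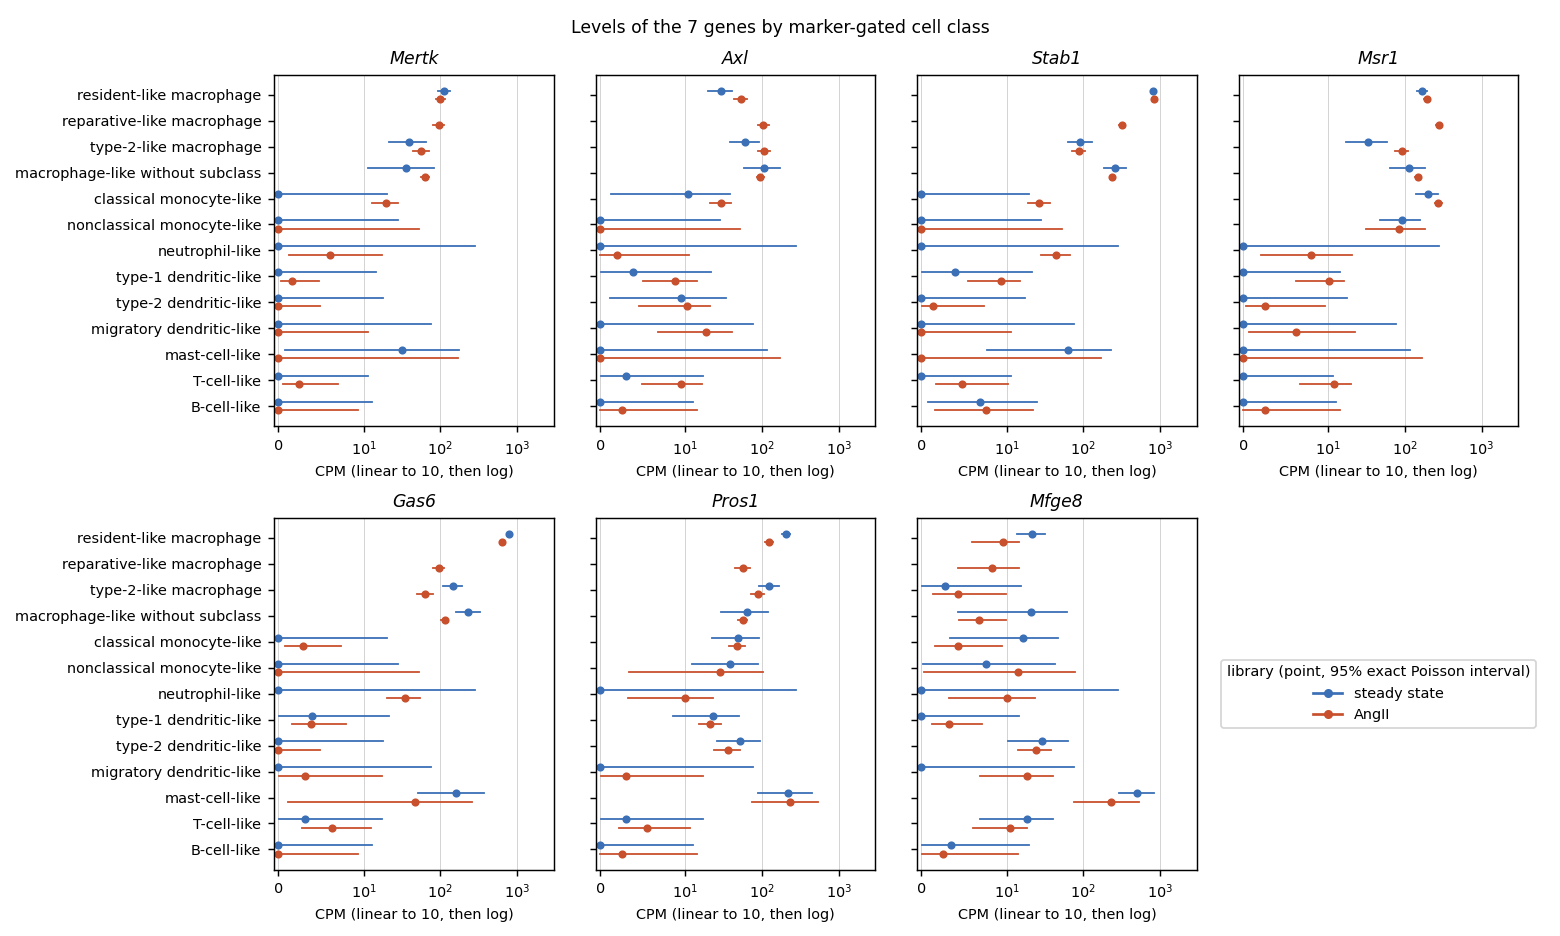
CPM of each gene (x axis, linear to 10 and logarithmic above) in the marker-gated classes of the steady-state (blue) and AngII (red) libraries, with 95% exact Poisson intervals as lines. *Stab1* and *Gas6* peaked in resident-like macrophages, *Axl* was highest in the other macrophage-like classes, *Msr1* was at least as high in classical monocyte-like as in resident-like cells, and *Mfge8* was highest in mast-cell-like cells.

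*Stab1* had its highest level in resident-like macrophages. At steady state they held 951 UMIs, or 810 CPM (interval 759 to 863), with 0, 7 and 45 UMIs as the lowest, median and highest value per cell. On AngII the class held 1845 UMIs, or 838 CPM (800 to 877), with 0, 1 and 60 UMIs per cell. A *Stab1* UMI was found in 92.5% and 63.5% of the cells, and in 57.1% and 53.1% after thinning. In T-cell-like cells, which should lack the gene, *Stab1* was at 0 of 38 cells at steady state (interval 0 to 11.5 CPM). On AngII it was at 4.76 CPM (6 of 230 cells), where the median depth of the class was 1378 UMIs against 1723 in resident-like cells. *Stab1* in resident-like macrophages was thus far above the level in lymphocytes in both libraries.

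Among the other macrophage classes on AngII, *Stab1* was at 316 CPM in reparative-like cells, 239.5 in cells without a subclass and 87.5 in type-2-like cells. The ratio to resident-like cells was 0.377 (0.340 to 0.418), 0.286 (0.264 to 0.310) and 0.105 (0.0849 to 0.128). Classical monocyte-like cells held 26.7 CPM and type-2 dendritic-like cells 1.33. The order was resident-like, reparative-like, without subclass and type-2-like, with no overlap of intervals between neighbours.

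*Mertk* was at 112 CPM (93.3 to 132) in resident-like macrophages at steady state, from 131 UMIs, with 0, 1 and 8 UMIs per cell. On AngII it was at 99.9 CPM (87.1 to 114), from 220 UMIs, with 0, 0 and 6 UMIs per cell. The share of cells with a UMI was 60.4% and 27.4% as sequenced, and 13.3% and 11.2% after thinning. Reparative-like cells were close to resident-like ones, at 94.6 CPM (ratio 0.947, 0.759 to 1.18), whereas cells without a subclass were at 63.1 CPM and type-2-like cells at 56.1. Monocyte-like cells were low, with 0 UMIs in the 10 classical ones at steady state (interval 0 to 19.9 CPM) and 19.5 CPM on AngII. In the 2 lymphocyte classes together, *Mertk* was at 0 of 88 cells at steady state and 2 of 326 on AngII.

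*Axl* was lower in resident-like macrophages than in the other macrophage-like cells. In resident-like macrophages it was at 29.0 CPM (20.1 to 40.5) at steady state, from 34 UMIs in 24 cells, and at 53.1 CPM (43.9 to 63.7) on AngII, from 117 UMIs in 63 cells. In the other macrophage-like cells it was at 73.3 CPM (51.6 to 101) and 99.4 CPM (91.9 to 107). Reparative-like cells on AngII had 105 CPM, type-2-like cells 107 and cells without a subclass 95.02, and these 3 neighbours had overlapping intervals. The most *Axl* UMIs in 1 cell were 6 at steady state and 18 on AngII, both in cells outside the resident-like class. Classical monocyte-like cells on AngII had 29.6 CPM of *Axl* (21.2 to 40.1), with a UMI in 22 of 219 cells, and T-cell-like cells 9.52 CPM (4.92 to 16.6), with a UMI in 7 of 230.

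*Msr1* was at least as high in classical monocyte-like cells as in resident-like macrophages. Classical monocyte-like cells were at 199 CPM (140.3 to 275) at steady state, with a UMI in 9 of 10 cells, and at 273 CPM (246 to 302) on AngII, with a UMI in 47.5% of 219 cells. Resident-like macrophages were at 167 CPM (144 to 192) and 195 CPM (177 to 214). Reparative-like cells on AngII had 280.2 CPM (254 to 309), which overlapped the monocyte-like interval, and type-2-like cells 90.9. T-cell-like cells had 0 of 38 cells with a UMI at steady state and 11.9 CPM on AngII. After thinning, *Msr1* was found in 24.1% of reparative-like cells, 21.6% of classical monocyte-like cells and 13.5% of resident-like cells on AngII.

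*Gas6*, the ligand with the highest affinity for the TAM receptors, was at 779 CPM (729 to 831) in resident-like macrophages at steady state, from 915 UMIs. The lowest, median and highest value per cell was 0, 8 and 27 UMIs, and 102 of 106 cells had at least 1. On AngII the class was at 634 CPM (601 to 668), from 1397 UMIs, with 0, 1 and 37 UMIs per cell. The share of cells with a UMI after thinning was 54.3% and 38.0%. The other AngII macrophage classes were between 63.7 CPM in type-2-like cells and 113 CPM in cells without a subclass, and classical monocyte-like cells were at 2.89 CPM (4 of 219 cells). In the steady-state monocyte-like cells, classical and nonclassical, no *Gas6* UMI was found. T-cell-like cells had 3.11 CPM at steady state and 6.34 on AngII.

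*Pros1* was broader. Resident-like macrophages were at 206 CPM (181 to 234) at steady state and 123 CPM (109 to 139) on AngII. Type-2-like cells were at 124 CPM (90.6 to 166) and 89.2 CPM (73.0 to 108), classical monocyte-like cells at 48.5 and 47.6, and type-2 dendritic-like cells at 52.6 and 35.9. On AngII, reparative-like cells and cells without a subclass were at 56.6 and 56.3 CPM, each inside the interval of the other. T-cell-like cells were at 3.11 and 5.55 CPM, below each of these classes.

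*Mfge8* was not mainly a macrophage transcript in these libraries. Mast-cell-like cells, gated on *Cpa3*, *Mcpt4*, *Cma1* and related markers, were at 505 CPM (289 to 821) at steady state, where each of the 7 cells had between 1 and 4 UMIs. On AngII they were at 230.5 CPM (74.8 to 538), with 5 UMIs in 3 of 14 cells, 2 of which were among the 3 deepest. These 3 cells held 1633, 717 and 75 UMIs of mast-cell markers. The AngII class was less pure, as 9 of the 14 cells had under 1000 UMIs. Neutrophil markers (2 of 8 found) were at 4425 CPM in it, in 11 of 14 cells, against 0 at steady state. Resident-like macrophages were at 21.3 CPM (13.8 to 31.4) and 9.53 CPM (5.90 to 14.6), and type-2 dendritic-like cells at 28.7 and 23.9. T-cell-like cells reached 18.7 and 11.1 CPM, and their intervals overlapped those of the macrophages in both libraries. *Pros1* was also found in mast-cell-like cells, at 221 CPM (88.9 to 456) from 7 UMIs and 230.5 CPM from 5 UMIs. The steady-state mast-cell-like cell with the most UMIs also held 47 UMIs of the complement genes *C1qa*, *C1qb* and *C1qc*, which mark macrophages, all 5 *Gas6* UMIs and both *Stab1* UMIs of the class; the other 6 held none of these. All 6 had an *Mfge8* UMI.

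Resident-like macrophages were then compared with the other macrophage-like cells of the same library. At steady state *Stab1*, *Gas6*, *Msr1* and *Mertk* were at least 2-fold higher in resident-like cells. The ratio of CPM was 5.84 (4.58 to 7.55) for *Stab1*, 4.57 (3.66 to 5.77) for *Gas6*, 3.01 (2.02 to 4.64) for *Msr1* and 2.96 (1.82 to 5.08) for *Mertk*. *Pros1* stood at 1.93 (1.43 to 2.64). Of the 5 genes with at least 100 UMIs in the 2 classes together, 4 were thus higher by at least 2-fold with an interval off 1 and 0 were lower. Over all 2735 genes with 100 UMIs, 8.92% were higher and 3.14% lower by this rule. The median log2 ratio of the 5 genes was 1.57, against 0.08 over all genes.

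*Axl* and *Mfge8* had too few UMIs at steady state for that count. *Axl* was lower in resident-like cells, at 0.395 (0.240 to 0.647) from 34 and 37 UMIs, and *Mfge8* was at 2.69 (0.927 to 10.6) from 25 and 4. The resident-like cells were shallower than the others at steady state, with a median of 9801 against 22023 UMIs. Fibroblast markers were at 79.2 CPM in them (4 of 8 found) against 23.8 (2 of 8) and smooth muscle markers at 35.8 (3 of 6) against 7.93 (1 of 6). Endothelial markers were at 19.6 (2 of 7) against 3.96 (2 of 7) and T-cell markers at 21.3 (7 of 10) against 192 (10 of 10, in 4 of 26 cells). B-cell markers were at 489 (9 of 9, in 97 of 106 cells) against 236 (9 of 9, in 19 of 26). Neutrophil markers were at 215 (5 of 8) against 119 (4 of 8). The part of all these markers in the ratios was not tested.

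The steady-state comparison depended on where the border of the small second class was drawn. Under a gate that asked for a wider lead of the leading class, which left 76 resident-like cells at steady state, *Gas6* was at 2.24, *Stab1* at 1.98, *Mertk* at 1.86 and *Msr1* at 1.52, so that 1 of the 4 stayed past 2-fold, and with clusters in place of the gate the *Axl* ratio was 1.01 (0.657 to 1.54). In the stricter gate, macrophage-like cells short of the wider lead of a subclass counted among the other macrophage-like cells. The part of such cells in the ratios was not tested.

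On AngII, *Gas6* and *Stab1* were the genes past 2-fold. *Gas6* was at 634 against 100.1 CPM (ratio 6.34, 5.77 to 6.97) and *Stab1* at 838 against 229 CPM (3.66, 3.41 to 3.92). *Pros1* followed at 1.97 (1.69 to 2.31), *Mertk* at 1.45 (1.23 to 1.71) and *Msr1* at 1.16 (1.03 to 1.30). *Axl* was lower in resident-like cells, at 0.534 (0.435 to 0.651). Of 6 genes with 100 UMIs, 2 were higher and 0 lower, against 2.27% higher and 2.05% lower of 7574 genes. On AngII the resident-like class had 430 cells under the gate, 168 under the stricter gate and 522 by clusters, 304 cells were in the class by both gate and clusters, and 118 macrophage-like cells lay within 0.02 of the lead that the gate required. Under the stricter gate *Gas6* was at 6.16, *Stab1* at 3.64 and *Pros1* at 2.49. In cells with at least 2000 UMIs *Gas6* was at 6.82, *Stab1* at 3.68 and *Axl* at 0.506, and with clusters in place of the gate *Gas6* was at 9.86, *Stab1* at 5.13, *Pros1* at 2.45 and *Mertk* at 2.08, which brought the count to 4.

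**Figure D2:**
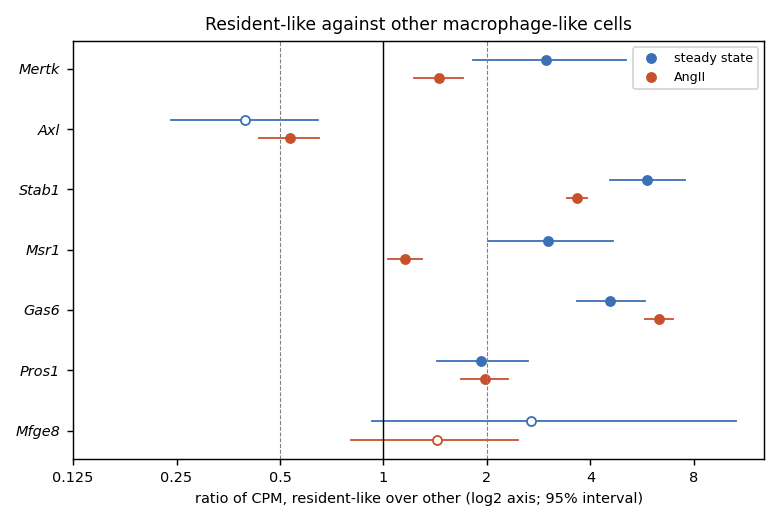
Ratio of CPM in resident-like over other macrophage-like cells (x axis, log2 scale) for the 7 genes in the steady-state (blue) and AngII (red) libraries, with 95% intervals as lines, a solid line at 1 and dashed lines at 2-fold; open points have under 100 UMIs. *Stab1* and *Gas6* lay past 2-fold in both libraries, *Axl* lay below 1 in both, and *Mertk* and *Msr1* lay at 2.96 and 3.01 at steady state and at 1.45 and 1.16 on AngII.

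To see whether the levels within a class differed between conditions, the AngII library was set against the steady-state library. In resident-like macrophages *Stab1* was at 1.03 times its steady-state CPM (0.956 to 1.12), *Mertk* at 0.895 (0.718 to 1.12) and *Msr1* at 1.17 (0.983 to 1.39), and these 3 intervals included 1. *Gas6* was lower, at 0.814 (0.748 to 0.886), and so was *Pros1*, at 0.597 (0.5001 to 0.713). *Axl* was higher, at 1.84 (1.24 to 2.77). *Mfge8* was at 0.448 (0.238 to 0.833) from 21 and 25 UMIs. Of the 6 genes with 100 UMIs, 0 were past 2-fold in either direction, beside 4.26% higher and 3.63% lower of 4925 genes.

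Some of these values moved with depth and gate. *Axl* in resident-like cells was at 1.80 in cells with at least 2000 UMIs and at 2.47 under the stricter gate, but at 1.14 (0.803 to 1.65) with clusters in place of the gate and at 0.832 (0.273 to 3.01) after thinning to 1000 UMIs. *Gas6* was at 1.09 (0.987 to 1.20) under the stricter gate. *Pros1* was between 0.434 and 0.698 in each of the alternatives run within the class. Fibroblast markers differed between the libraries too: 4 of 8 were found in resident-like cells at steady state, with 79.2 CPM in all and *Col1a1*, *Col1a2*, *Lum* and *Pdgfra* at 0, and 7 of 8 on AngII, with 20.4 CPM in all and *Pdgfra* at 0. Without cells that held a UMI of a fibroblast, smooth muscle or endothelial marker, *Gas6* was at 0.776, *Pros1* at 0.434 and *Axl* at 2.35. A fibroblast UMI alone was held by 50 of 106 resident-like cells at steady state and 37 of 430 on AngII, at median depths of 9801 and 1723 UMIs. This filter thus took a larger share of the steady-state class, and the part of depth in it was not tested. Neutrophil markers were higher on AngII, at 710 CPM (7 of 8 found) against 215 at steady state (5 of 8 found), with *Ly6g* at 0 in both. B-cell markers were at 489 CPM at steady state and 285 on AngII, with 9 of 9 found in both. The part of neutrophil and B-cell markers in these ratios was not tested.

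In the other macrophage-like cells, *Msr1* was at 168 CPM on AngII against 55.5 at steady state (3.03, 2.09 to 4.59). *Mertk* stood at 1.83 (1.16 to 3.07), *Stab1* at 1.65 (1.30 to 2.13), *Axl* at 1.36 (0.973 to 1.94), *Gas6* at 0.587 (0.468 to 0.744) and *Pros1* at 0.583 (0.438 to 0.789). *Mfge8* was at 0.842 from 43 and 4 UMIs. Of 6 genes, 1 was past 2-fold higher and 0 lower, beside 8.83% higher and 3.56% lower of 6889 genes. In the same cells neutrophil markers were at 119 CPM at steady state (4 of 8 found) and 797 on AngII (7 of 8, *Ly6g* at 0 in both), and T-cell markers at 192 and 54.0 CPM (10 of 10 in both), and their part in these ratios was not tested. The subclasses of these cells differ between the libraries. *Msr1* was at 33.1 CPM in type-2-like cells at steady state and 90.9 on AngII, and at 113 and 149.7 CPM in cells without a subclass. The *Msr1* ratio was 1.69 under the stricter gate, 1.95 after thinning and 1.44 as the mean of the CPM of cells, all short of 2-fold.

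The same ratios were computed over all macrophage-like cells together, of which resident-like cells were 106 of 132 at steady state and 430 of 1992 on AngII. *Gas6* was at 236 CPM on AngII against 596 (0.396, 0.367 to 0.428), *Pros1* at 77.8 against 176 (0.441, 0.384 to 0.508) and *Stab1* at 384 against 608 (0.631, 0.589 to 0.678). *Axl* was at 87.6 CPM against 42.3 (2.07, 1.62 to 2.68) and *Msr1* at 175 against 133 (1.31, 1.14 to 1.52). *Mertk* was at 0.859 (0.719 to 1.03). *Gas6* and *Stab1* thus had lower ratios in the pool of macrophages than in resident-like cells alone.

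**Figure D3:**
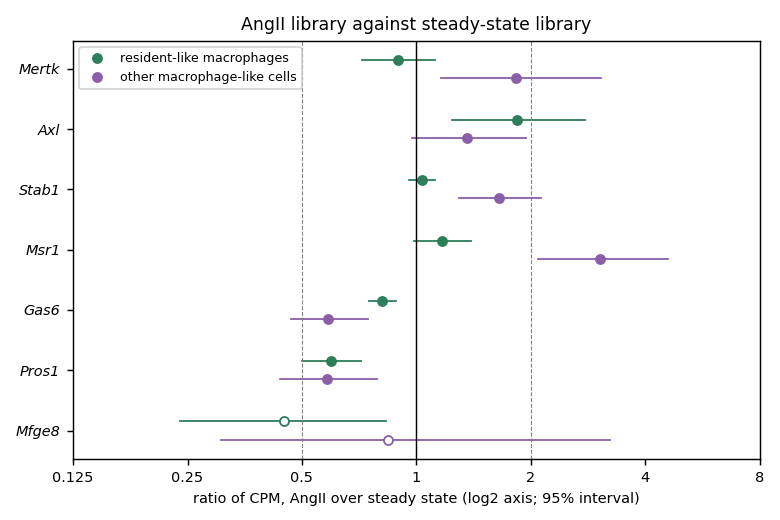
Ratio of CPM in the AngII over the steady-state library (x axis, log2 scale) for resident-like macrophages (green) and other macrophage-like cells (purple), with 95% intervals as lines, a solid line at 1 and dashed lines at 2-fold; open points have under 100 UMIs. In resident-like cells no filled point lay past 2-fold, and in the other cells *Msr1* lay at 3.03.

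Ligand and receptor were then looked for in the same resident-like cell. Each ligand was paired with each receptor, whether or not they bind each other. Before thinning, *Gas6* and *Mertk* were found together in 62 of 106 cells at steady state (58.5%, 48.5 to 68.0) and 100 of 430 on AngII (23.3%, 19.3 to 27.5). After thinning to 1000 UMIs the shares were 7.62% (3.35 to 14.5) of 105 cells and 6.60% (4.08 to 10.0) of 303 cells, with overlapping intervals. In the other macrophage-like cells the thinned share was 0 of 25 at steady state (0% to 13.7%), an interval that included the resident-like share. On AngII it was 0.817% (0.329 to 1.68) of 857. *Gas6* with *Stab1*, which binds the lipid without a bridging ligand, was the pair found most often, in 35.2% (26.2 to 45.2) and 23.4% (18.8 to 28.6) of thinned resident-like cells. Counted singly, *Stab1* (57.1% and 53.1%) and *Gas6* (54.3% and 38.0%) were also the genes of the 7 found most often.

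The ligand was also counted separately in cells with and without a UMI of the receptor. In thinned cells at steady state *Gas6* was found in 57.1% (28.9 to 82.3) of the *Mertk*-positive and 53.8% (43.1 to 64.4) of the *Mertk*-negative resident-like cells. On AngII it was found in 58.8% (40.7 to 75.4) of 34 *Mertk*-positive cells and 35.3% (29.6 to 41.4) of the *Mertk*-negative ones, with overlapping intervals. *Gas6* with *Axl* was found in 1 thinned cell of each library, and *Pros1* with *Mertk* in 4 of 105 and 1 of 303 cells. Other pairs differed in direction. On AngII *Gas6* was found in 8.33% (0.211 to 38.5) of *Axl*-positive and 39.2% (33.5 to 45.0) of *Axl*-negative cells. It was found in 44.1% of *Stab1*-positive and 31.0% of *Stab1*-negative cells. *Pros1* was found in 2.94% of *Mertk*-positive and 13.4% of *Mertk*-negative cells on AngII, but in 28.6% and 18.7% at steady state. *Mfge8* was found in only 2 and 1 thinned resident-like cells, too few for any pair. Of the 12 pairs of a ligand with a receptor, those of *Mfge8* therefore gave no usable share, and at this depth a cell without a UMI cannot be taken to lack a transcript.

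**Figure D4:**
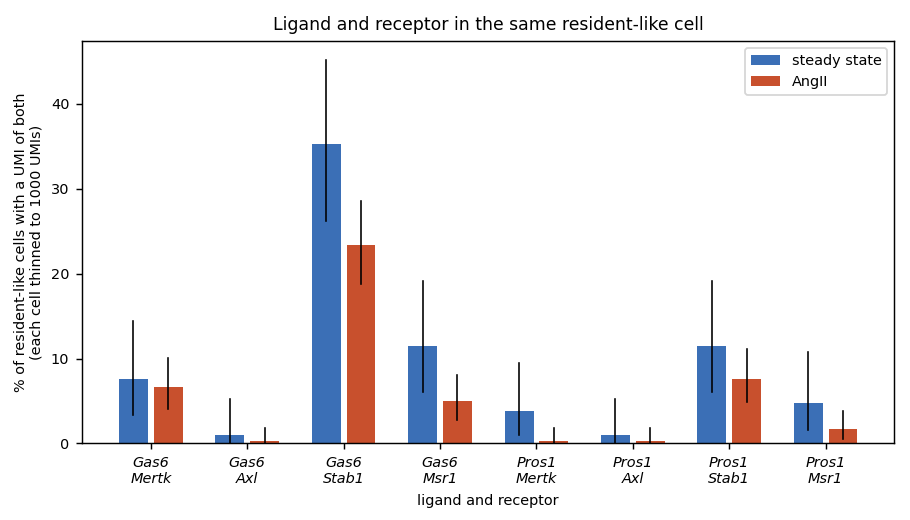
Share of resident-like macrophages with at least 1 UMI of both ligand and receptor, after each cell was thinned to 1000 UMIs (y axis, percent), for *Gas6* and *Pros1* with each receptor at steady state (blue) and on AngII (red), with 95% exact binomial intervals as lines. Cells under 1000 UMIs were left out. Each ligand is shown with each receptor, whether or not they bind each other. *Gas6* with *Stab1*, the genes with the highest single shares, had the highest share in both libraries, and the intervals of *Gas6* with *Mertk* overlapped between libraries.

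Within resident-like macrophages, cells with a *Yfp* UMI were compared with cells without. At steady state there were 83 and 23 such cells, with median depths of 10934 and 6673 UMIs, and on AngII 126 and 304 cells, with 7374 and 1346. At steady state *Mertk* was lower in *Yfp*+ cells, at 103 against 174 CPM (0.591, 0.382 to 0.946). *Stab1* was at 0.907, *Gas6* at 0.875, *Msr1* at 1.05 and *Pros1* at 0.717, each with an interval that included 1. On AngII *Mertk* was at 1.08 (0.815 to 1.43), and *Pros1* at 1.37 (1.06 to 1.78), *Stab1* at 1.23 (1.11 to 1.35) and *Gas6* at 1.13 (1.01 to 1.26) were higher in *Yfp*+ cells. *Axl* was at 0.848 (0.325 to 2.81) at steady state, from 29 and 5 UMIs, and at 1.15 (0.778 to 1.71) on AngII. *Mfge8* was at 3.51 (0.572 to 144.3) from 24 and 1 UMIs and at 2.935 (0.957 to 11.99) from 17 and 4 UMIs, with intervals that included 1. Of the genes with 100 UMIs, none was past 2-fold in either library, with 0 of 5 and 0 of 6. Over all genes 4.20% were higher and 1.04% lower at steady state, and 0.399% higher and 0.427% lower on AngII.

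The differences of *Mertk*, *Stab1* and *Gas6* changed with the gate and the depth. On AngII, *Stab1* was at 0.932 and *Gas6* at 0.851 under the stricter gate, *Stab1* was at 0.977 when 2 *Yfp* UMIs were asked for, and *Gas6* was at 0.970 over all deposited barcodes. *Mertk* at steady state was at 0.372 (0.165 to 0.880) when *Yfp* was called at full depth and the cells were then thinned to 2000 UMIs, and at 1.12 (0.204 to 4.06) when all cells were thinned to 1000. *Yfp*- cells were shallower than *Yfp*+ cells in both libraries, and the part of depth in these differences was not tested.

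The other genes of the pathway were taken from a list of 68, of which 61 are not among the 7. Between resident-like and other macrophage-like cells at steady state, 26 of the 61 had 100 UMIs, 7 were at least 2-fold higher in resident-like cells and 0 lower, beside 8.92% and 3.14% of all genes, with a median log2 ratio of 0.25 against 0.08 over all genes. Among the receptors these were *Timd4*, a phosphatidylserine receptor of resident macrophages, at 151 against 9.91 CPM (15.2, 6.40 to 47.4), the scavenger receptor *Colec12* at 5.23 (2.90 to 10.4), *Cd36*, which binds oxidised lipids, at 2.31 (1.98 to 2.71) and the integrin chain *Itgb5* at 2.31 (1.34 to 4.22). The nucleotide receptor *P2ry12* was at 8.10 (3.82 to 20.5) and the sphingosine-1-phosphate receptor *S1pr1* at 2.86 (1.71 to 5.07). *Abca1*, which exports cholesterol, was at 3.34 (2.45 to 4.67). None of the 6 genes of the engulfment machinery with 100 UMIs was past 2-fold.

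On AngII, 44 of the 61 had 100 UMIs, 2 were higher in resident-like cells and 4 lower, beside 2.27% and 2.05% of all genes, with a median log2 ratio of 0.02 against 0.06. *P2ry12* was at 2.74 (2.17 to 3.46) and *Abca1* at 2.16 (1.98 to 2.35). *Thbs1* (thrombospondin-1), a bridging ligand, was lower, at 168 against 623 CPM (0.269, 0.241 to 0.299). *Tgm2*, a transglutaminase of the phagocytic cup, was at 0.405 (0.304 to 0.532), *Pparg*, a lipid-sensing nuclear receptor, at 0.380 (0.196 to 0.681) from 13 and 100 UMIs, and *Dock5*, an exchange factor for Rac, at 0.471 (0.247 to 0.833) from 14 and 87. The bridging ligands were thus split in the AngII library, with *Gas6* higher and *Thbs1* lower in resident-like cells.

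Within resident-like macrophages, 36 of the 61 genes had 100 UMIs in the 2 libraries together, 5 were at least 2-fold higher on AngII and 4 lower, beside 4.26% and 3.63% of all genes. The receptors *Timd4* at 0.142 (0.1004 to 0.196), *Colec12* at 0.157 (0.109 to 0.222) and *Cd36* at 0.217 (0.193 to 0.243) were lower, in contrast to the ratios near 1 of *Stab1*, *Mertk* and *Msr1*, and so was *S1pr1* at 0.392 (0.291 to 0.525). *Thbs1* had 0 UMIs at steady state and 168 CPM on AngII, which was 65.6-fold higher with the steady-state class taken at 3 UMIs, while the exact interval of the ratio began at 53.1. The cholesterol exporter *Abcg1* was at 25.2 (9.68 to 93.4) from 189 and 4 UMIs, the fractalkine receptor *Cx3cr1* at 2.37 (1.89 to 3.01), the engulfment adaptor *Elmo2* at 2.11 (1.32 to 3.49) and *Adam17*, a protease that sheds Mertk from the cell surface, at 2.11 (1.64 to 2.75).

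In the other macrophage-like cells 42 of the 61 had 100 UMIs, 10 were higher on AngII and 2 lower, beside 8.83% and 3.56% of all genes. *Thbs1* was at 62.9 (26.9 to 194) from 4016 and 5 UMIs. *Itgb5* was at 4.73 (2.90 to 8.31), *Cd24a*, a surface protein that restrains uptake, at 4.71 (2.27 to 11.8), *Nr1h3*, the oxysterol receptor LXRα, at 3.86 (1.30 to 18.9), *Cx3cr1* at 2.97 (2.21 to 4.08) and *Itgav* at 2.51 (1.42 to 4.90). The exchange factor *Vav1* and *Abca1* were at 2.11 (1.32 to 3.59) and 2.10 (1.56 to 2.90). *Tgm2* and the lipid receptor *Cd300lf* had 0 UMIs at steady state and were 11.3-fold and 8.77-fold higher on AngII with steady state taken at 3 UMIs, while their exact intervals began at 9.15 and 7.09. *Cd36* at 0.284 (0.242 to 0.334) and *Pparg* at 0.460 (0.274 to 0.822) were lower. Between *Yfp*+ and *Yfp*- resident-like cells, 0 of 23 other genes were past 2-fold at steady state and 1 of 30 on AngII, *Thbs1* at 0.447 (0.360 to 0.553).

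Finally, genes were ranked by how closely their log2(CPM + 10) followed each of the 7 over the 14 classes of either library with at least 20 cells and 50000 UMIs. From steady state only the resident-like, T-cell-like and B-cell-like classes entered, and the rest came from the AngII library. As classes of 1 library share its depth and free RNA, these correlations are a description. *Gas6* and *Stab1* followed each other (r = 0.96), and *Mertk* followed *Stab1* (0.96), *Msr1* (0.92) and *Gas6* (0.91). *Axl* had positive values too, at 0.86 with *Msr1*, 0.85 with *Mertk*, 0.71 with *Stab1* and 0.64 with *Gas6*. Closest to *Gas6* were *Scamp5*, *Cbr2* and *Igf1* (0.98 to 0.99), and among those closest to *Stab1* were *Prune2* and *Pf4* (0.98 each), of which *Cbr2* and *Pf4* are markers of the resident gate. *Mertk* was closest to *Cmklr1*, *Tmem37* and *Rnase4* (0.98 each). *Msr1* and *Axl* had *Ptgr1* as their nearest gene (0.97 and 0.92), followed by *Slc7a8* and *Gm36161* for *Msr1* and by *Scamp1* and *Steap3* for *Axl*. Among those closest to *Pros1* were *Ap2a2* and *Tmem141* (0.97 each). *Mfge8* was between -0.13 and 0.17 with each of the other 6 genes, and its nearest genes, *Smurf1*, *Asxl1* and *Bend4*, reached 0.76 to 0.78; the mast-cell-like classes were too small to enter.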

How the data were processed

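CD45+ cells of the aortic adventitia were captured as 2 droplet libraries (10x Genomics 3′ v3.1), 1 per condition, pooled from 3 mice at steady state and 2 on AngII. The authors mapped the reads with Cell Ranger 3.1.0 to GRCm38.p6 with the GENCODE M24 annotation and the eYFP sequence, and deposited unnormalized UMI counts per gene and barcode. All else was computed from these counts with Scanpy 1.11.5, leidenalg 0.10.2, SciPy 1.17.1, pandas 2.3.3, NumPy 2.4.6 and Matplotlib 3.10.9 under Python 3.11.15.

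Barcodes outside 300 to 6500 genes or above 5% mitochondrial UMIs were removed, which left a median of 9105 and 1092 UMIs per cell. Each cell was scored for 18 marker lists as the mean log-normalized marker level, capped at the 90th percentile of positive cells, and took the leading class if at least 3 of its markers were found and its lead was at least 0.1 (0.25 in the stricter gate). Macrophage-like cells were split by the same rule. The scoring, and the naming of the Leiden clusters (10 and 26) used as an alternative, were settled after the cells had been seen. The 7 genes, the marker and pathway lists and the alternatives were chosen with earlier results of these data known.

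Levels are CPM of summed UMIs with exact Poisson intervals, ratios carry exact conditional intervals and shares of cells Clopper-Pearson intervals, all at 95% and for counting error only. A gene counted as past 2-fold at a ratio of at least 2 or at most 0.5 with an interval off 1, among genes with at least 100 UMIs in both classes together, and 0.5 UMIs were added for log2 ratios. During the work this count was briefly made on the fold alone and then set back to the rule as first written, which changed none of the counts of the 7 genes in the comparisons as reported. The genes named are the 7, the pathway genes past 2-fold, the 3 genes nearest to each of the 7 in level over classes (some are not reported here), and markers. Doublets were left in, and Scrublet called 5 at steady state and 0 on AngII. The ratio step was tested on simulated counts. With 1 library per condition there are no replicates, and no test between conditions was made.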

Additional observations from a re-analysis of the deposited data

How the results depend on the processing

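Of the values of single genes under the alternatives, 379 stayed within the counting interval of the reported value, 88 moved outside it and 14 changed direction. Between resident-like and other macrophage-like cells the direction was kept in 67 of 68 values at steady state and 62 of 63 on AngII, the exceptions being *Axl* with clusters in place of the gate (1.01) and *Msr1* after thinning to 1000 UMIs (0.992). Between AngII and steady state, *Gas6* in resident-like cells turned to 1.09 and *Stab1* in other cells to 0.750 under the stricter gate, *Axl* in resident-like cells turned to 0.832 after thinning, and *Mertk* in other cells turned to 0.839 as the mean of the CPM of cells. With all macrophage-like cells together *Mertk* was at 0.859 and *Stab1* at 0.631, where the other cells alone had been above 1. Between *Yfp*+ and *Yfp*- cells on AngII, *Gas6* turned to 0.970 over all barcodes and 0.851 under the stricter gate, *Stab1* to 0.932 under that gate and 0.977 with 2 *Yfp* UMIs, and *Pros1* to 0.873 after thinning, and at steady state *Mertk* turned to 1.12 after thinning.

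The counts of the 7 genes past 2-fold moved as follows. Resident-like over other cells had 1 higher (stricter gate) or 2 higher (thinned) at steady state, and 4 higher (clusters) or 1 lower (thinned, or at least 1000 genes) on AngII. In that comparison on AngII, *Pros1* also had a ratio above 2 under the stricter gate. AngII over steady state in resident-like cells had 1 higher under the stricter gate, 1 higher and 1 lower without cells with stromal UMIs, and 1 higher and 2 lower with all macrophage-like cells together. In other cells it had 0 higher and 2 lower (stricter gate), 0 higher and 1 lower (mean of the CPM of cells, judged on the fold alone as it has no interval), 0 higher (thinned), 1 lower (clusters) and 2 lower (all macrophage-like cells together). *Yfp*+ over *Yfp*- at steady state had 1 lower with *Yfp* called at full depth before thinning to 2000 UMIs. Of the whole pathway list, 4 were lower in resident-like cells at steady state with a minimum of 20 UMIs and 2 with clusters, and on AngII 8 and 10 were higher. *Gas6* with *Mertk* was found in 0.943%, 19.4% and 0.952% of steady-state resident-like cells when thinned to 500 UMIs, thinned to 2000 or with 2 UMIs of each gene, and in 1.63%, 13.9% and 0.330% on AngII. The cause of these changes was not tested, other than that thinning leaves fewer UMIs, fewer cells and wider intervals.

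The alternatives with cells of at least 2000 UMIs, with *Yfp* called before thinning and with all macrophage-like cells together were chosen after seeing the data. Leaving out doublets removed cells at steady state only, since none were called on AngII. No paired analysis was possible because each condition has 1 library. Shallow AngII cells limit every share of cells, and the 26 other macrophage-like cells limit the steady-state comparison.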

Other observations

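Cells that the gate left without a class numbered 21 at steady state and 1153 on AngII, with median depths of 16824 and 788 UMIs. At steady state these 21 cells had 63.8 CPM of *Axl* (41.3 to 94.2), with a UMI in 11 cells, and 38.3 CPM of *Mfge8* (21.4 to 63.1), with a UMI in 5, and 3 smooth muscle markers were among their 10 leading genes. On AngII the unassigned cells had 132 CPM of *Msr1*, 76.1 of *Stab1*, 57.2 of *Axl*, 42.0 of *Pros1*, 37.9 of *Gas6*, 20.4 of *Mertk* and 7.80 of *Mfge8*. They held 15.5% of the *Msr1* UMIs and 15.4% of the *Axl* UMIs of that library.

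Neutrophil-like cells on AngII (165 cells) had 44.1 CPM of *Stab1* (27.7 to 66.8) from 22 UMIs in 11 cells and 34.1 CPM of *Gas6* (19.9 to 54.6) from 17 UMIs in 8 cells, of which 1 cell held 9. After thinning, *Stab1* was found in 0 of 123 and *Gas6* in 2.44% of these cells.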
